A study of Mus musculus with 22 samples.

Results

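Lin28a, Lin28b, Hmga1, Hmga2, Igf2bp1, Igf2bp2 and Igf2bp3, regulators of fetal gene expression that are joined through the let-7 microRNAs, were followed through the endothelial to haematopoietic transition of the mouse embryo. They were chosen by name and are 7 of the 24454 genes in the count table of the study. The study set sorted populations of the aorta-gonad-mesonephros (AGM), the region where blood stem and progenitor cells arise from endothelium, beside each other at successive stages. Each of the 22 libraries was made from 25 untreated cells of C57BL/6 embryos that had been sorted as positive for VE-Cadherin, a junction protein of endothelium, and then divided by surface CD44 and Kit. The CD44Neg population had 10 libraries, of which 4 came from embryonic day E9.5, 3 from E10 and another 3 from E11. CD44LowKitNeg, the CD44-positive endothelium, had 6 libraries, 1 at E9.5, then 2 at E10 and 3 at E11. CD44LowKitPos, the cells low in CD44 that carry Kit, had 3 libraries, 1 at E9.5 and 2 at E10, and CD44High had 3 libraries, all at E11. The labels do not say whether libraries of a population came from separate embryos or litters, so the p-values below measure the spread between libraries, which may in part be technical.

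LIN28A and LIN28B are RNA-binding proteins that grip the loop of let-7 precursors, recruit enzymes that add uridines to them and so keep mature let-7 low in embryonic cells. HMGA proteins are small chromatin proteins that bind the minor groove of AT-rich DNA, and Hmga2 is a textbook let-7 target. IGF2BP proteins bind mRNAs, many of them marked by N6-methyladenosine (m6A), stabilise them and move them, and Igf2 mRNA gave the family its name. In blood formation these genes are known for the difference between fetal and adult stem cells, since Lin28b, Hmga2 and Igf2bp3 are active in the fetal and low in the adult stem cell.

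The sequences that link the genes are given first. The genes were chosen as a group known to be joined through let-7, so shared matches follow in part from that choice. The table of RefSeq microRNAs on GRCm38.p6 held 11 mature sequences with the let-7 seed, encoded at 13 loci. These lines show 4 of the family, with the seed, bases 2 to 8, in capitals.
mmu-let-7a-5p: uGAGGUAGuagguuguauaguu
mmu-let-7b-5p: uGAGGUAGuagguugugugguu
mmu-let-7g-5p: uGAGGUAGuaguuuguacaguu
mmu-miR-98-5p: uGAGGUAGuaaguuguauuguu

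LIN28 proteins recognise the letters GGAG in the loop of the precursor. Of 11 let-7 family hairpins with both arms in that table, 8 held GGAG between the arms. The hairpin of Mirlet7g (chr9:106178840-106178927, + strand) is an example, with the letters in capitals.
Mirlet7g: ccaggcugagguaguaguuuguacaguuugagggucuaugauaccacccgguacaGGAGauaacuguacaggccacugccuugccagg

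A match to the let-7 seed, CTACCTC on the mRNA strand, was looked for in the longest annotated 3′ UTR of each gene (GENCODE M21 on GRCm38, mRNA strand alone, no matches overlapping). All 7 members held at least 1 match, against 9.02% of 21020 protein-coding genes, and there were 17 matches in all, 9 of them followed by A, which makes the longer match CTACCTCA. Lin28b, Hmga2 and Igf2bp1 held 4 matches each, and 0.0571% of all genes held as many as 4. Among genes with a 3′ UTR within 20% of the same length, 0.157% held as many at the length of Lin28b, 0.0891% at that of Hmga2 and 0.178% at that of Igf2bp1. At least 1 match was held by 24.2%, 15.5% and 33.6% of the same genes. Igf2bp2, Igf2bp3 and Hmga1 held 1 match each, and 12%, 13.3% and 8.04% of genes of like length held at least as many. Lin28a held 2, as did 2.06% of genes of like length. A match is a run of letters and was not tested as a site of regulation. The first match of each member and the other match of Lin28a are shown with the match in capitals.
Lin28a, chr4:134005189-134005211, - strand: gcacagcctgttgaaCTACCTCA
Lin28a, chr4:134004551-134004573, - strand: gagatcgccacaaacCTACCTCA
Lin28b, chr10:45381022-45381044, - strand: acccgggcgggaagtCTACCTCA
Hmga1, chr17:27563277-27563299, + strand: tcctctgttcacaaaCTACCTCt
Hmga2, chr10:120364224-120364246, - strand: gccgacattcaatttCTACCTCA
Igf2bp1, chr11:95961778-95961800, - strand: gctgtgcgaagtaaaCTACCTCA
Igf2bp2, chr16:22059473-22059495, - strand: acacacaaataaaagCTACCTCA
Igf2bp3, chr6:49086787-49086809, - strand: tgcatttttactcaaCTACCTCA

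**Figure D1:**
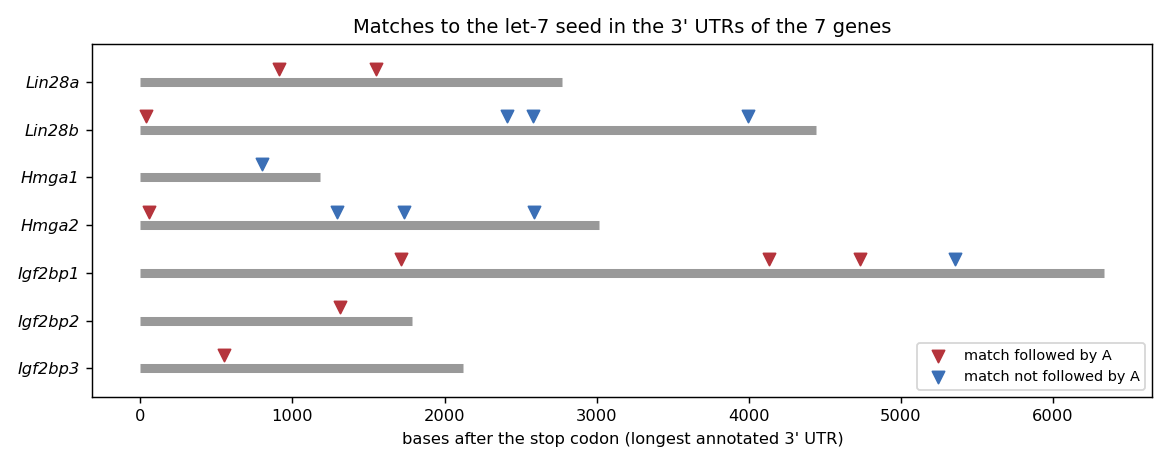
Position of each match to the let-7 seed in the longest annotated 3′ UTR of the 7 genes, in bases after the stop codon. Grey bars are the 3′ UTRs, red marks are matches followed by A and blue marks are the others. Hmga2 has its only match followed by A at base 58, and 3 of the 4 matches of Igf2bp1 are followed by A.

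The let-7 microRNAs themselves were not measured. The libraries were primed on poly(A) tails, and the 11 rows for let-7 genes held at most 5 counts in a library, with 7 of them at 0 throughout. Levels below are therefore those of the mRNAs, in normalized CPM (counts scaled to a common library total after TMM scaling of the 22 libraries).

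The libraries held 3912350 to 8657546 counts, which makes 3 counts, the most that a count of 0 allows, equal to 0.348 to 0.816 normalized CPM; such limits cover counting error alone. The population labels were checked against markers. Cd44 was 2.14 to 58.9 normalized CPM in CD44Neg and at least 158 in every CD44-positive library, and Kit was 173.5 to 269.7 in CD44LowKitPos and lower in every other library. The 8 endothelial markers summed to between 829.1 and 9347 normalized CPM in CD44Neg, CD44LowKitNeg and CD44LowKitPos, but to 69.9 to 153 in CD44High, where Cdh5, the gene of VE-Cadherin itself, had 0 counts in all 3 libraries. CD44High held all 8 macrophage markers, summing to 1697 to 4562 against at most 53.0 in any other library, beside the 8 haematopoietic markers at 1400 to 2598, and its erythroid markers (58.8 to 285 against at most 61.3) and mesenchymal markers (0.272 to 208 against at most 76.2) also reached the highest sums. Neural markers summed to at most 14.9 in every library. Every CD44High result below therefore sets cells with macrophage transcripts and no VE-Cadherin mRNA against endothelium-containing populations, and the part of those cells in each result was not tested. In 25-cell samples, fewer cells of a type and less RNA per cell cannot be told apart.

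Per kilobase of exon, Hmga2 had the highest mean level over the 22 libraries (24.6 ± 14.1 normalized CPM per kb, SD, n = 22). Igf2bp3 followed at 19.9 ± 7.63, Igf2bp1 at 13.2 ± 5.38, Igf2bp2 at 10.5 ± 4.67 and Lin28b at 7.16 ± 4.44 on that scale. Neighbours in this order differed by less than the larger of their SDs, and the order changed with population. Igf2bp3 was highest in CD44Neg (23.7 ± 6.94 against 21.7 ± 11.5 for Hmga2, n = 10) and in CD44High (19.8 ± 2.17 against 5.54 ± 3.66, n = 3). Lin28a was lower, at 1.59 ± 2.55 normalized CPM per kb.

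Hmga1, which encodes the second architectural HMGA protein, had 0 to 8 counts per library and passed no filter on low counts, so 6 of the 7 members were tested in each fit. These counts are not read as its level, and whether the gene was on or off cannot be told from them.

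Lin28a was highest in the youngest embryos. The 4 CD44Neg libraries of E9.5 had 29.96, 23.4, 18.2 and 15.2 normalized CPM, the E9.5 library of CD44LowKitPos 14.5 and that of CD44LowKitNeg 6.95. At E10 the 3 CD44Neg libraries had 28.3, 0.224 and 1.34 normalized CPM, and the 2 CD44LowKitNeg and 2 CD44LowKitPos libraries 0. At E11 the CD44Neg and CD44LowKitNeg libraries were all at 0 and the CD44High libraries at 0, 0.799 and 0.544. So all 6 E9.5 libraries were on, with 60 to 158 counts, all 9 E11 libraries had at most 3 counts, and 1 of the 7 E10 libraries was as high as at E9.5. In CD44Neg the mean at E9.5 was 21.7 ± 6.46 (SD, n = 4), at least 35.3-fold higher than at E11, where a floor of 3 counts in each library was used in place of 0.

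The test of that difference within CD44Neg did not pass the threshold used throughout, an adjusted p under 0.01 (adjusted p = 0.0609, quasi-likelihood test of edgeR, adjusted by Benjamini and Hochberg's method over all genes tested). Lin28a is also a gene of primordial germ cells, which cross this region at these stages. Of 11 germ cell markers, Pou5f1, Prdm14, Tfap2c and Utf1 had 0 counts in all 22 libraries, and the 11 together summed to at most 11.01 normalized CPM. The highest sum was in the CD44LowKitNeg library of E9.5, which had the lowest Lin28a level of that stage. The CD44Neg libraries of E9.5 had sums of 0.190, 3.82, 0.745 and 6.03, in the order of their Lin28a values above. At E10 the sum was 7.04 in the CD44Neg library with Lin28a at 28.3 and 3.80 and 0 in the other CD44Neg libraries. At that stage the CD44LowKitPos libraries, with Lin28a at 0, had sums of 7.75 and 2.67, and those of CD44LowKitNeg, also at 0, had 0 and 0.135. The part of germ cells in the Lin28a values was not tested.

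Lin28b had no such switch. In CD44Neg it was 86.6, 59.4, 74.3 and 75.2 normalized CPM at E9.5, then 42.4, 45.6 and 53.5 at E10 and 24.4, 35.0 and 3.72 at E11. In CD44LowKitNeg it was 63.6 at E9.5, then 49.2 and 103.5 at E10 and 3.36, 25.6 and 46.5 at E11. These endothelial libraries were lowest at E11, and the stages of CD44Neg did not overlap. The log2 fold change of E11 over E9.5 in CD44Neg was -1.85 (SE 0.66, adjusted p = 0.245, edgeR), and that of E11 over E10 in CD44LowKitNeg was -1.57 (SE 0.73, adjusted p = 0.330), neither of which passed.

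In the populations with blood gene expression, CD44LowKitPos had Lin28b at 82.9 normalized CPM at E9.5 and 75.8 and 161 at E10, and CD44High, at E11, had 157, 87.3 and 71.6. CD44LowKitPos overlapped CD44LowKitNeg at E10 and lay within the CD44Neg range at E9.5. CD44LowKitPos was not tested against CD44Neg at E10. It was not called against CD44LowKitNeg over all stages (adjusted p = 0.273, edgeR) or at E10 (adjusted p = 0.781, edgeR). All 3 CD44High libraries lay above the 6 endothelial libraries of the same stage, and over all genes 17% lay above CD44Neg and 20.9% above CD44LowKitNeg in this way. Lin28b had a log2 fold change of 2.27 over CD44Neg at E11 (SE 0.69, adjusted p = 0.0281, edgeR) and of 1.97 over CD44LowKitNeg at E11 (SE 0.68, adjusted p = 0.0383, edgeR), which missed the threshold of 0.01. Alternative fits called it higher, against CD44Neg with DESeq2's Wald test (adjusted p = 0.00527) and with no filter on low counts (adjusted p = 3.6e-04, edgeR), and against CD44LowKitNeg with no filter (adjusted p = 0.00112, edgeR). Over all alternatives the adjusted p of Lin28b ranged from 3.6e-04 to 0.107 against CD44Neg and from 0.00112 to 0.126 against CD44LowKitNeg. Between CD44High and CD44LowKitPos the log2 difference of Lin28b was near 0, with a 95% interval from -1.65 to 1.61. These populations share no stage, and with stage as a covariate the difference was 1.48 (SE 0.79, adjusted p = 0.331, edgeR).

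**Figure D2:**
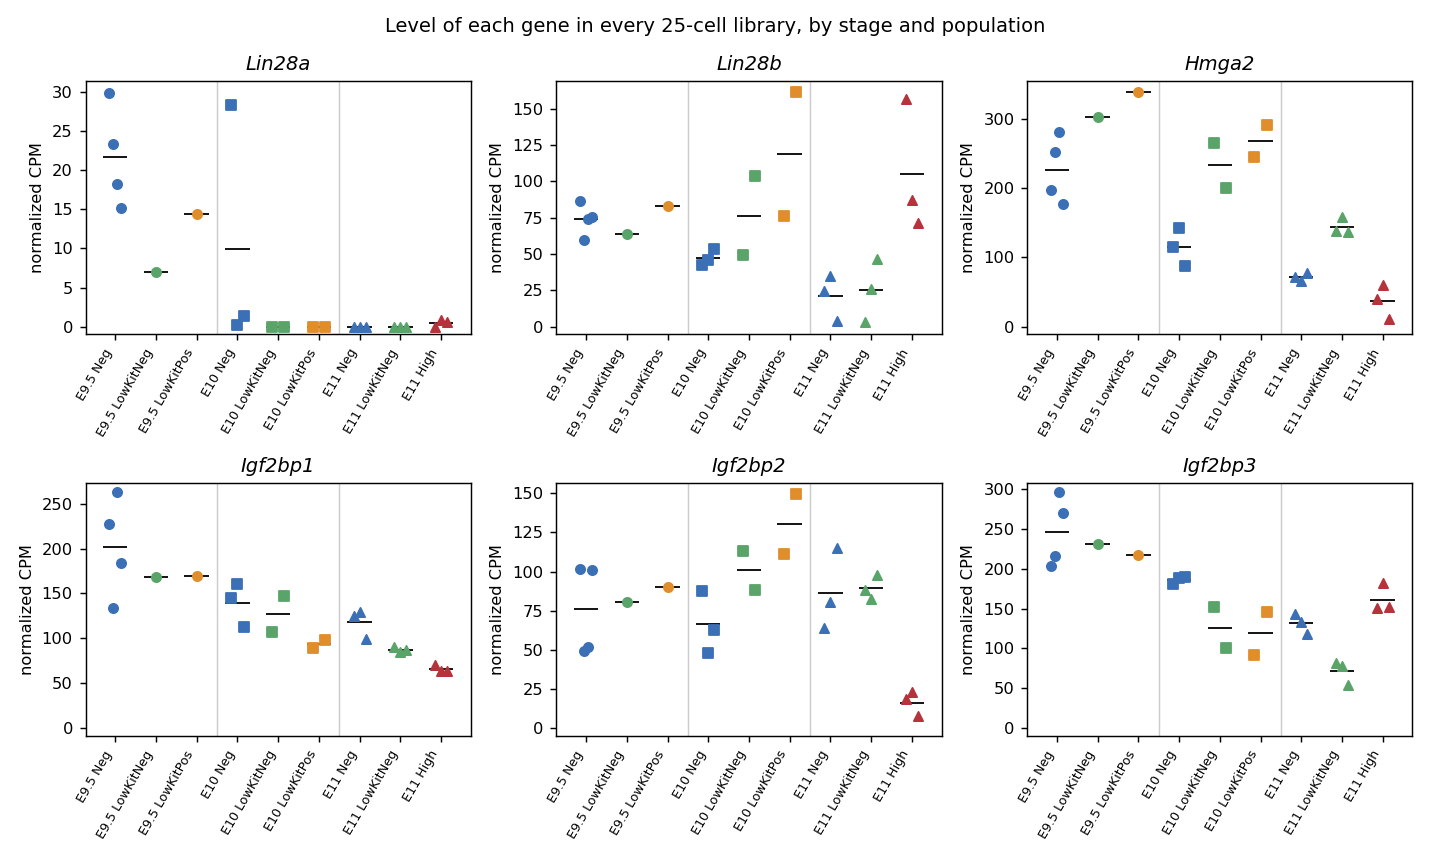
Normalized CPM of 6 of the genes in every library, by stage and population; blue points are CD44Neg, green CD44LowKitNeg, orange CD44LowKitPos and red CD44High libraries, circles are E9.5, squares E10 and triangles E11, and black lines are group means. Lin28a is at or near 0 in the 9 E11 libraries, Hmga2 and Igf2bp3 are lower at each later stage within CD44Neg, and Igf2bp2 is at 7.62 to 23.2 in the CD44High libraries and at least 48.3 in all others.

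Hmga2 levels were ordered by stage, and by population between CD44Neg and CD44LowKitNeg. These differences did not pass the threshold in the planned edgeR fits. In CD44Neg it was 197, 252, 281 and 178 normalized CPM at E9.5, then 115, 142 and 87.2 at E10 and 71.0, 66.3 and 77.4 at E11. In CD44LowKitNeg it was 303 at E9.5, then 265 and 200.5 at E10 and 139, 158 and 137 at E11. CD44LowKitPos had 339 at E9.5 and 245 and 291 at E10. Within each stage every CD44LowKitNeg library was above every CD44Neg library, and within CD44Neg and CD44LowKitNeg no stage overlapped another.

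The order by population was found at each of the 3 stages for 4.94% of the 11022 genes tested in those 16 libraries, and Hmga2 was the only member that had it. When all stages were pooled, Hmga2 was not called between CD44LowKitNeg (200.4 ± 69.8, SD, n = 6) and CD44Neg (147 ± 77.6, SD, n = 10), with adjusted p = 0.334 by edgeR and a 95% interval of the log2 difference from -0.21 to 1.12. The 2 populations differ in their share of E9.5 libraries. With stage as a covariate, an alternative fit, its log2 fold change was 0.89 (SE 0.16, adjusted p = 5.1e-04, edgeR), and 5.51% of all genes were called higher in that fit. At E11 alone the log2 fold change was 1.06 (SE 0.37, adjusted p = 0.0950, edgeR), which did not pass.

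In CD44High, the row of Hmga2 held 40.4, 60.7 and 11.4 normalized CPM, below every library of the other populations. Over all genes, 16.8% lay below CD44Neg and 17.4% below CD44LowKitNeg at E11 in this way, and 12% below CD44LowKitPos. As counted, the CD44High mean of Hmga2, 37.5 ± 24.8, fell below the 292 ± 46.7 of CD44LowKitPos (SD, n = 3 each), a log2 difference of -2.96 (SE 0.57, adjusted p = 0.00165, edgeR). It also fell against CD44LowKitNeg at E11, which had 145 ± 11.9 (SD, n = 3), a log2 difference of -2.05 (SE 0.38, adjusted p = 3.7e-04, edgeR). Against CD44Neg at E11 (71.6 ± 5.57, SD, n = 3) the log2 fold change of -0.99 did not pass (SE 0.37, adjusted p = 0.0791, edgeR). CD44High was sampled at E11 and CD44LowKitPos at E9.5 and E10, so stage and population cannot be told apart from these libraries alone. With stage as a covariate, estimated from the other populations, the log2 difference was -1.99 (SE 0.44, adjusted p = 0.00661, edgeR). The share of counts on Rn45s, the ribosomal RNA precursor, was 16.6 to 23.9% in CD44High and 6.82 to 9.26% in CD44LowKitPos. Without Rn45s the log2 difference was -2.95 (adjusted p = 0.00138, edgeR).

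The Hmga2 values in CD44High carry a limit of counting. A processed copy of the gene on another chromosome, Hmga2-ps1, had 148, 248 and 131 counts in the CD44High libraries, beside 204, 228 and 42 for Hmga2, and 0 to 103 counts in the other libraries. Whether reads were exchanged between the copy and Hmga2 was not tested. When the counts of the copy were added to those of Hmga2, an alternative chosen after the values were seen, the CD44High libraries had 69.7, 126.7 and 47.1 normalized CPM and overlapped CD44Neg at E11. Both calls were then lost, with a log2 fold change of -1.88 against CD44LowKitPos (adjusted p = 0.0245, edgeR) and of -0.94 against CD44LowKitNeg at E11 (adjusted p = 0.0215, edgeR), and that against CD44Neg at E11 changed sign to 0.09 (adjusted p = 0.916, edgeR). With only the compared libraries in the fit, and without the counts of the copy, the log2 differences of Hmga2 stayed at -3.00 against CD44LowKitPos and -2.06 against CD44LowKitNeg at E11, and the adjusted p rose past 0.01 (0.0156 and 0.0287, edgeR). Without the CD44High library 22 the log2 difference from CD44LowKitPos was -2.59 and missed the threshold (adjusted p = 0.0120, edgeR).

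**Figure D3:**
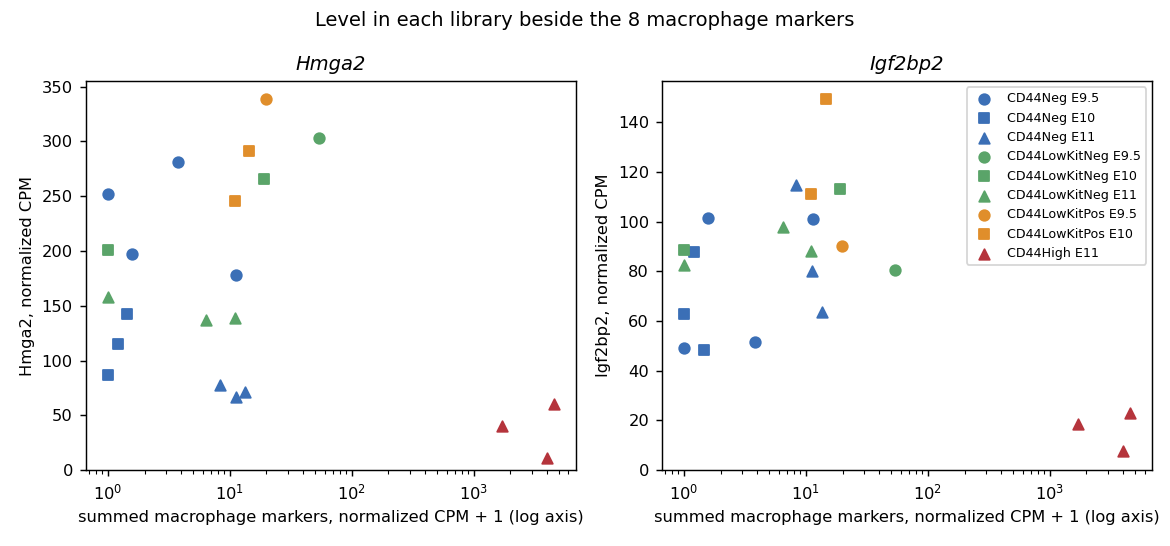
Level of Hmga2 and Igf2bp2 in each library (vertical axes, normalized CPM) beside the summed level of 8 macrophage markers (horizontal axes, normalized CPM + 1, log axis). The 3 CD44High libraries stand apart on both measures, with marker sums of 1697 to 4562 and the lowest levels of both rows; reads on the Hmga2-ps1 row are not included.

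Igf2bp1, an oncofetal reader of m6A, was 228, 133, 263 and 184 normalized CPM at E9.5 in CD44Neg, 145, 161 and 112 at E10 and 125, 129.6 and 99.9 at E11. CD44LowKitNeg had 169 at E9.5, then 107 and 147 at E10 and 90.3, 85.0 and 87.5 at E11. CD44LowKitPos had 169 at E9.5 and 89.0 and 97.8 at E10. The CD44High libraries, at 70.3, 63.4 and 63.9, were the lowest of all. In CD44High 16.8% of all genes lay below CD44Neg and 17.4% below CD44LowKitNeg at E11 without overlap, and 12% below CD44LowKitPos. Every E9.5 library was above every E11 library.

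No population comparison called Igf2bp1 by edgeR, but DESeq2's Wald test called it lower in CD44High than in CD44Neg at E11 (adjusted p = 0.00533). Its log2 fold change in CD44High was -0.90 against CD44Neg at E11 (SE 0.25, adjusted p = 0.0162, edgeR) and -0.85 against CD44LowKitPos (SE 0.35, adjusted p = 0.190, edgeR). CD44High and CD44LowKitPos share no stage, and with stage as a covariate the difference of Igf2bp1 was -0.28 (SE 0.28, adjusted p = 0.688, edgeR). In the fit without that covariate, leaving out the CD44LowKitPos library 19 moved the difference from -0.85 to -0.51 (adjusted p = 0.580, edgeR).

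Igf2bp2, the member of its family that stays on in many adult tissues, had stages that overlapped. In CD44Neg it was 101, 49.2, 51.6 and 101 normalized CPM at E9.5, then 87.9, 48.3 and 62.7 at E10 and 63.8, 80.4 and 115 at E11. CD44LowKitNeg had 80.7 at E9.5, then 113 and 88.5 at E10 and 88.2, 82.7 and 97.9 at E11, and CD44LowKitPos had 90.3 at E9.5 and 111 and 149.5 at E10. No stage stood apart, and the 95% interval of the log2 difference between E11 and E9.5 in CD44Neg ran from -0.63 to 0.93.

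The CD44High libraries stood apart, with 18.4, 23.2 and 7.62 normalized CPM of Igf2bp2. The shares of all genes without overlap in CD44High are those given for Igf2bp1. Igf2bp2 fell in each of the 3 comparisons of CD44High. The log2 fold change was -2.83 against CD44LowKitPos (SE 0.40, adjusted p = 4.0e-05, edgeR), -2.45 against CD44Neg at E11 (SE 0.41, adjusted p = 2.0e-04, edgeR) and -2.55 against CD44LowKitNeg at E11 (SE 0.41, adjusted p = 9.1e-05, edgeR). These 3 comparisons share the CD44High libraries.

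Igf2bp3, the third of the family and a partner of Lin28b in fetal blood stem cells, was lowest in CD44LowKitNeg of E11. In CD44Neg it was 203, 216, 295 and 269 normalized CPM at E9.5, then 180.3, 188 and 189.9 at E10 and 144, 133 and 118 at E11. In CD44LowKitNeg it was 230.3 at E9.5, then 152 and 100.1 at E10 and 82.1, 77.5 and 53.9 at E11. CD44LowKitPos had 217 at E9.5 and 91.7 and 146 at E10, and CD44High had 150.2, 182 and 152. At E11 the populations did not overlap, with CD44LowKitNeg lowest, CD44Neg next and CD44High highest. Over all genes, 15.1% lay below CD44Neg in CD44LowKitNeg without overlap, and 17% and 20.9% lay above CD44Neg and CD44LowKitNeg in CD44High. CD44High was not called against CD44Neg at E11 (adjusted p = 0.602, edgeR), with a 95% interval of the log2 difference of Igf2bp3 from -0.30 to 0.76.

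Igf2bp3 rose in CD44High against CD44LowKitNeg at E11 by a log2 difference of 1.07 (SE 0.25, adjusted p = 0.00266, edgeR). Between CD44LowKitNeg and CD44Neg its log2 fold change was -0.84 at E11 (SE 0.25, adjusted p = 0.0434, edgeR) and -0.74 over all stages (SE 0.27, adjusted p = 0.0629, edgeR), neither of which passed. The call against CD44LowKitNeg was lost without the CD44LowKitNeg library 13 (adjusted p = 0.0128, edgeR) and with only the compared libraries (adjusted p = 0.0351, edgeR). In turn, without the CD44LowKitNeg library 14 Igf2bp3 was called lower in CD44LowKitNeg than in CD44Neg over all stages (adjusted p = 0.00651, edgeR).

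**Figure D4:**
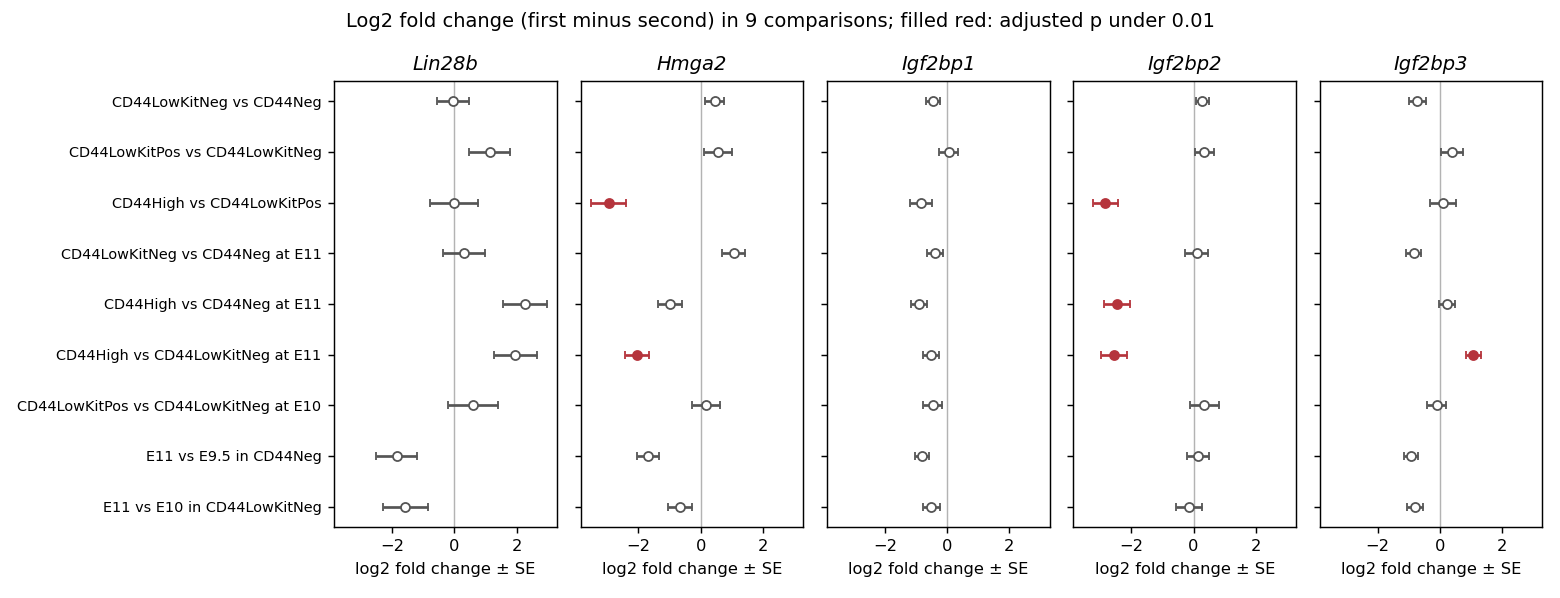
Log2 fold change ± SE of 5 genes in the 9 comparisons, the named first group over the second, from edgeR's quasi-likelihood fit; filled red points passed an adjusted p under 0.01 and open points did not, and the calls of Hmga2 are lost when Hmga2-ps1 is added. Calls are confined to the CD44High comparisons in this plot: Igf2bp2 at -2.83, -2.45 and -2.55, Hmga2 at -2.96 and -2.05 and Igf2bp3 at 1.07. Lin28a is left out because several of its groups are at 0.

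By comparison, CD44LowKitNeg against CD44Neg called 0 of the 6 members tested by edgeR, where 10.2% of 11022 genes were called, and 1 member had an unadjusted p under 0.05. At E11 alone, that comparison again called 0, with 2 members under an unadjusted 0.05, beside 2.89% of 14609 genes called. CD44LowKitPos against CD44LowKitNeg called 0 members with none under an unadjusted 0.05 by edgeR, beside 4.26% of 12949 genes called, and 0 members at E10 beside 1.96%. DESeq2's Wald test also called 0 members in these 4 comparisons. CD44High against CD44LowKitPos called 2 members, both lower, beside 3.01% of genes called and 2.23% called lower. Of all calls there 25.9% were higher, against 69.1% in a fit of only the compared libraries. CD44High against CD44Neg at E11 called 1, lower, beside 9.42% called and 6.19% called lower, and CD44High against CD44LowKitNeg at E11 called 3, beside 16.2%. In the last of these 1 member was higher and 2 were lower, and 7.97% and 8.23% of all genes were.

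The stage comparison within CD44Neg, E11 against E9.5, called 0 of the 6 members by edgeR, although 5 had an unadjusted p under 0.05, all lower at E11. It called 0.0411% of 14609 genes, 6 in all. DESeq2's Wald test called 3 members there, Lin28a, Hmga2 and Igf2bp3. The log2 fold change of Hmga2 was -1.69 (SE 0.36, adjusted p = 0.0325, edgeR), that of Igf2bp3 -0.94 (SE 0.23, adjusted p = 0.0682) and that of Igf2bp1 -0.81 (SE 0.24, adjusted p = 0.137). The levels of Lin28b, Hmga2 and Igf2bp3 in CD44Neg were lower at E10 than at E9.5 and lower again at E11, without overlap, as were those of 0.335% of 14609 genes. E11 against E10 in CD44LowKitNeg also called 0 members by edgeR or DESeq2, beside 0.363% of genes by edgeR, and 2 members had an unadjusted p under 0.05, one of them Igf2bp3 (log2 fold change -0.80, SE 0.27, adjusted p = 0.149, edgeR). Marker sums of CD44LowKitNeg differed between these stages too. Haematopoietic markers had 263 and 136 normalized CPM at E10 and 16.1, 3.75 and 4.49 at E11. Mesenchymal markers had 5.54 and 2.03, then 46.7, 29.2 and 76.2, and endothelial markers 4107 and 4934, then 9347, 8547 and 8342. The part of cell mixture in the stage values was not tested.

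Across populations, all 6 E9.5 libraries lay above all 9 E11 libraries for Lin28a, Hmga2, Igf2bp1 and Igf2bp3, 4 of the 6 members tested, and for 0.513% of all 14609 genes. A fit of the 22 libraries with population and stage as separate terms, added after the values were seen, called these 4 lower at E11, beside 1.34% of 12949 genes called lower. In that fit the log2 fold change of E11 over E9.5 was -1.20 for Igf2bp3 (SE 0.18, adjusted p = 9.7e-04, edgeR), -1.46 for Hmga2 (SE 0.27, adjusted p = 0.00406, edgeR) and -0.90 for Igf2bp1 (SE 0.18, adjusted p = 0.00508, edgeR), and Lin28a had an adjusted p of 0.00976 by edgeR. With each library left out of that fit, the adjusted p ranged from 0.00275 to 0.0621 for Lin28a, 4.8e-04 to 0.0145 for Hmga2, 0.00224 to 0.0231 for Igf2bp1 and 6.1e-04 to 0.0108 for Igf2bp3. Lin28b missed the threshold with -1.65 (SE 0.49, adjusted p = 0.0502, edgeR), and Igf2bp2 had an adjusted p of 0.785.

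Those stage calls moved with the libraries used. Leaving out each of the 22 libraries in turn kept the call of Igf2bp3 in 21 fits, of Hmga2 in 17, of Igf2bp1 in 15 and of Lin28a in 4. In 3 of these fits the library left out was of CD44High, which was sampled at E11 alone. The log2 fold change of Igf2bp3 was -1.22 in each, so these fits test the stage calls little. Igf2bp3 lost its call without the CD44LowKitNeg library 14 (adjusted p = 0.0108), the E9.5 library of its population, and without that library Lin28a had its highest adjusted p of 0.0621. The descriptions of the libraries end in a number, written like a date, that is the same within a stage and differs between stages, so stage and what that number marks cannot be told apart. The share of counts on Rn45s moved with stage too, from 1.92 to 13.8% at E9.5 to 15.2 to 23.9% at E11, and its part in the stage results was not tested beyond a fit without it, in which Hmga2 in CD44Neg had a log2 fold change of -1.62 (adjusted p = 0.0435, edgeR). The difference between E11 and E10 was not shown to vary between CD44LowKitNeg and CD44Neg, since no member passed the test of the interaction by edgeR, and none had an unadjusted p under 0.05 there. Lin28a could not be judged by that test, because CD44LowKitNeg had 0 counts of it at E10 and E11. No other tool was run on the interaction.

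Genes that act with the members were counted from 4 lists. Of 14 let-7 processing and turnover genes, 2 rose in CD44LowKitNeg against CD44Neg and 12 were not called, where 10.2% of all genes were called and 4.94% rose. These were Zcchc11, a terminal uridylyltransferase that LIN28 recruits (101 ± 22.5 against 47.8 ± 15.8 normalized CPM, log2 fold change 1.09, SE 0.24, adjusted p = 0.00358, edgeR), and Papd4, another terminal nucleotidyltransferase (0.74, SE 0.17, adjusted p = 0.00334). In CD44High, where 6.19% and 8.23% of all genes fell against CD44Neg and CD44LowKitNeg at E11, 1 gene of this list fell against CD44Neg at E11, Trim71, itself a let-7 target of embryonic cells (1.95 ± 2.72 against 22.6 ± 9.89), and 1 fell against CD44LowKitNeg at E11, Dicer1, the enzyme that cuts let-7 from its precursor (28.6 ± 9.32 against 94.1 ± 18.1, log2 fold change -1.83, SE 0.40, adjusted p = 0.00157, edgeR). The median log2 fold change of the list was -0.23 and -0.44 in those 2 comparisons, beside 0 over all genes.

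Of 26 let-7 target genes apart from the members, 23 were tested between CD44LowKitNeg and CD44Neg, where 2 rose, 2 fell and 19 were not called, beside 4.94% and 5.23% of all genes. Myc, the growth regulator, fell from 100.3 ± 22.2 to 25.4 ± 8.34 normalized CPM (log2 fold change -1.97, SE 0.24, adjusted p = 1.7e-05, edgeR), and Ccnd1, a G1 cyclin, from 170.3 ± 31.5 to 21.3 ± 13.8 (-2.99, SE 0.40, adjusted p = 4.0e-05). Insr, the insulin receptor, rose from 18.01 ± 6.69 to 69.6 ± 31.5, and Fas, a death receptor, from 9.30 ± 6.80 to 95.6 ± 20.3. Myc rose again in CD44LowKitPos against CD44LowKitNeg, to 96.5 ± 9.56, the 1 call of this list there, beside 2.55% of all genes that rose. At E11 alone, CD44LowKitNeg against CD44Neg had 0 higher and 3 lower by edgeR, Ccnd1, Myc and its relative Mycn, beside 0.862% and 2.03% of all genes. In CD44High against CD44LowKitNeg at E11, where 7.97% of all genes rose and 8.23% fell, 3 rose, among them Cdk6, a G1 kinase (230.5 ± 49.1 against 33.97 ± 7.92), and 1 fell, Ccnd2, a cyclin (40.1 ± 13.1 against 168 ± 34.2). The median log2 fold change of the list was 0.10 in that comparison, 0.053 in CD44LowKitNeg against CD44Neg at E11 and -0.16 over all stages.

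Of 15 genes of insulin-like growth factor signalling, 6 fell in CD44High against CD44Neg at E11 and 6 fell against CD44LowKitNeg at E11, with 9 not called each time, where 6.19% and 8.23% of all genes fell. Their medians were -2.42 and -1.76. Igf2, the growth factor whose mRNA the IGF2BP proteins bind, was 63.7 ± 55.8 normalized CPM in CD44High, 1660 ± 362 in CD44Neg and 4682 ± 561 in CD44LowKitNeg at E11. H19, the non-coding neighbour of Igf2 at its imprinted locus, was 19.7 ± 14.2, 634 ± 108 and 2444 ± 670 in the same groups, and Igf2r, the receptor that clears Igf2, was 11.3 ± 5.39, 169 ± 48.1 and 226 ± 15.5. In CD44LowKitNeg against CD44Neg over all stages, 3 of 11 tested rose, namely Insr, H19 (log2 fold change 1.44, SE 0.27, adjusted p = 8.0e-04, edgeR) and Igf2 (1.37, SE 0.35, adjusted p = 0.00796, edgeR), and 8 were not called. CD44High also held the macrophage markers given above, and the part of those cells in each CD44High value here was not tested. Mesenchymal markers at E11 summed to 46.7, 29.2 and 76.2 normalized CPM in CD44LowKitNeg and to 12.98, 9.53 and 0.465 in CD44Neg. These sums were also higher in CD44LowKitNeg at E10, and at E9.5 the populations overlapped. The part of mesenchymal cells in the rises of Insr, H19 and Igf2 was not tested.

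Of 14 m6A writers, erasers and readers, 2 rose between CD44Neg and CD44LowKitNeg, the reader genes Ythdf3 (149.5 ± 40.2 to 304 ± 96.2 normalized CPM) and Ythdc1 (log2 fold change 0.83, SE 0.21, adjusted p = 0.00877, edgeR), and 12 were not called, beside 4.94% of all genes that rose. In CD44High against CD44LowKitNeg at E11 2 rose and 1 fell, beside 7.97% and 8.23% of all genes, with Ythdf2 at 283 ± 26.01 against 129 ± 41.9 and Ythdf3 at 107 ± 36.8 against 221 ± 27.0.

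Over the 22 libraries, the gene whose log2 CPM ran most like that of Igf2bp2 was Gimap5 (Pearson r = 0.92), followed by Hoxa9 and Zfp521 (both 0.91). For Hmga2 it was Bend4 (0.89), for Igf2bp3 Blmh (0.91), for Igf2bp1 Gnb1 (0.90), for Lin28b Ttc1 (0.87) and for Lin28a Aard (0.86). Among the members themselves the highest values were those of Hmga2 with Igf2bp2 (0.76) and of Lin28a with Igf2bp3 (0.74). These values describe libraries that share populations, stages and depth, and say nothing of shared control.

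Annotated genes overlap the span of several members, introns included, on the other strand, and the libraries do not mark strand. Whether their exons overlap those of the member, and so whether reads were exchanged, was not tested. On GRCm38, Lin28a (chr4:134003330-134018841, - strand) overlaps Gm13061, Hmga2 (chr10:120361275-120476469, - strand) overlaps 1700006J14Rik and 9230105E05Rik, Igf2bp1 (chr11:95957163-96005940, - strand) overlaps Gm29202, and Igf2bp3 (chr6:49085223-49214957, - strand) overlaps Malsu1 and Gm18010. Hmga1 (chr17:27556497-27563674, + strand) overlaps Gm49774 and AI413582. Lin28b (chr10:45376620-45486395, - strand) and Igf2bp2 (chr16:22059009-22163299, - strand) overlap no other annotated gene.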

How the data were processed

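Poly(A) mRNA was measured in 22 libraries of 25 sorted cells, made by Smart-seq2. The deposited values are raw counts per gene, which the authors obtained with FASTX, RNA STAR and htseq-count on a Galaxy server. The submitters' processing notes name mm10, FastQC and HTSeq; the annotation and the strand setting are not given in the sources used here. Smart-seq2 with Nextera does not mark strand. Populations and stages came from the labels.

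Counts were fitted with edgeR 4.0.16 in R 4.3.3 (TMM scaling, filterByExpr with a minimum count of 10 and a minimum total of 15, quasi-likelihood test, Benjamini-Hochberg adjustment over all genes, call at an adjusted p under 0.01). Libraries of 2 populations entered the fit of CD44LowKitNeg against CD44Neg (11022 genes), all 22 libraries entered a fit by population (12949 genes) and one by population and stage (14609 genes). SE is the log2 fold change over the root of F, and fold changes use a prior count of 0.125. For a member they are printed where its unadjusted p was under 0.05, and from alternative fits where these bear on a printed value. Scripts were tested on simulated data. Alternatives were other scaling, filters, thresholds, DESeq2 1.42.0, stage as a covariate, left-out libraries, and 2 added after the values were seen (a population and stage fit, and Hmga2 summed with Hmga2-ps1). Replicate libraries differed by more than sampling noise. The members and gene lists were chosen with earlier results of these data known. Let-7 matches and sequences were read from GENCODE M21 (GRCm38) and RefSeq tables with Python 3.11.15. A limit on how reads of Hmga1 were counted is not reported here.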

Additional observations from a re-analysis of the deposited data

Results flagged for a closer look

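In the CD44LowKitNeg population, the Lin28a level of library 14, the only one of E9.5, stood far from the others at 6.95 normalized CPM, while the other 5 libraries, of E10 and E11, were at 0. It was 1 of 21 groups examined for a library apart from the rest, and chance marks about 1 in 20 groups. Stage differs between this library and the others, and its part in the value was not tested.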

How the results depend on the processing

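No paired analysis was made, because the labels number the libraries in series and do not say which came from the same embryos or litters. Any pairing that was not recorded was therefore left out. The number of members called between CD44LowKitNeg and CD44Neg went from 0 to 1 with stage as a covariate (Hmga2) and was 0 to 1 when each library was left out. For CD44High against CD44LowKitPos it went from 2 to 1 with only the compared libraries and to 1 with Hmga2-ps1 added, and was 1 to 2 with libraries left out. For CD44LowKitNeg against CD44Neg at E11 it went from 0 to 1 at an adjusted p under 0.05. For CD44High against CD44Neg at E11 it went from 1 to 3 at 0.05, 2 with no filter and 3 with DESeq2, and the log2 fold change of Hmga2 turned from -0.99 to 0.093 with Hmga2-ps1 added. For CD44High against CD44LowKitNeg at E11 it went from 3 to 1 with only the compared libraries (Igf2bp2 kept, Hmga2 and Igf2bp3 lost). For E11 against E9.5 in CD44Neg it went from 0 to 1 at 0.05, 2 with no filter, 3 with DESeq2, 2 with only the compared libraries and 4 with population and stage as terms. The cause of these changes was not tested. Igf2bp2 was called lower in CD44High under every alternative run.

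Counts of calls over all genes moved by more than 1.5 times in these cases. At an adjusted p under 0.05 they went from 1121 to 2217 for CD44LowKitNeg against CD44Neg, 552 to 1619 for CD44LowKitPos against CD44LowKitNeg, 390 to 784 for CD44High against CD44LowKitPos, 422 to 962, 1376 to 2308 and 2367 to 3734 for the 3 comparisons at E11 in the order given above, 287 to 732 at E10, 6 to 99 for E11 against E9.5 and 53 to 285 for E11 against E10. DESeq2 gave 1747, 1265, 712 and 966 for the first 4 of these, 833 at E10, and 179 and 397 for the stage comparisons. No filter gave 771 for CD44LowKitNeg against CD44Neg at E11, 618 at E10, and 101 and 310 for the stage comparisons. With only the compared libraries, the count was 15 for CD44LowKitPos against CD44LowKitNeg, 204 for CD44High against CD44LowKitPos, 1160 for CD44High against CD44LowKitNeg at E11, 8 at E10, and 79 and 1 for the stage comparisons. Stage as a covariate gave 366 for CD44LowKitPos against CD44LowKitNeg, and population and stage as terms gave 222 for E11 against E9.5. With libraries left out, the counts were 65 to 687 for CD44LowKitPos against CD44LowKitNeg (lowest without CD44LowKitPos 17), 251 to 392 for CD44High against CD44LowKitPos (lowest without CD44High 22), 194 to 338 for CD44LowKitNeg against CD44Neg at E11 (lowest without CD44Neg 1), 86 to 216 at E10 (lowest without CD44LowKitPos 17), 0 to 6 for E11 against E9.5 (lowest without CD44Neg 1) and 23 to 84 for E11 against E10 (lowest without CD44LowKitNeg 15). Of the 552 calls 59.8% were higher, against 44.4% with DESeq2 size factors, 34% with DESeq2's Wald test and 34.7% without CD44LowKitPos 19. With only the compared libraries the share of calls that were higher went from 29.9% to 55.3% for CD44LowKitNeg against CD44Neg at E11 and from 34.2% to 44.8% for CD44High against CD44Neg at E11.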
